A study of Mus musculus with 4 samples.

Results

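The mitochondrial ribosomal proteins were followed in bulk mammary tumours of mice with and without a MYC transgene. They were taken as the rows of the deposited table whose gene symbol starts with Mrpl or Mrps and a number, which gave 80 of 20555 genes: 77 protein-coding genes, 48 with an Mrpl and 29 with an Mrps symbol, and 3 processed pseudogenes. RNA was sequenced from 4 libraries in 2 groups. MYC-PyMT has the genotype S100a8-creRosa26-LSL-MYCPyMT, in which a Cre recombinase under S100a8, a gene expressed strongly in neutrophils, was combined with a MYC allele behind a stop cassette at Rosa26. Control-PyMT has the genotype PyMT. Both groups carry PyMT, a viral oncogene (polyoma middle T) that drives mammary tumours. Age, the species of the MYC transgene and the mouse behind each library are not in the labels, so every p-value here is set against a spread between libraries that could be technical.

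The mitochondrial ribosome, or mitoribosome, translates the few messenger RNAs of the mitochondrial genome, all of which encode membrane subunits of the respiratory chain and ATP synthase. Its ribosomal RNAs are mitochondrial transcripts, but its proteins are encoded in the nucleus, made in the cytosol and imported. Part of these proteins descend from bacterial ribosomal proteins, and the others have no bacterial counterpart. The large subunit forms peptide bonds and releases the new chain through an exit tunnel. The small subunit binds the messenger RNA and decodes it.

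Mitochondrial ribosomal protein genes were higher in MYC-PyMT tumours almost throughout. Of 79 members that passed the level filter, 71 were higher in MYC-PyMT (limma, adjusted p under 0.05), 0 were lower and 8 did not pass. At an unadjusted p under 0.05, no member was lower either. Over all 16725 tested genes 23.3% were called higher and 24.6% lower. The median log2 change of the members was 1.10, against -0.02 over all tested genes. Log2 changes are MYC-PyMT minus Control-PyMT on the scale of log2(scaled counts + 1), and scaled counts are read counts divided by a size factor for each library. Both MYC-PyMT libraries lay above both Control-PyMT libraries for 78 of the 79, which held for 37% of all tested genes. Summed over the 80 members, the members' share of all scaled counts in a library, in percent, was 0.598 and 0.657 in MYC-PyMT, against 0.355 and 0.327 in Control-PyMT. The groups thus did not overlap relative to each library's own total either.

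**Figure D1:**
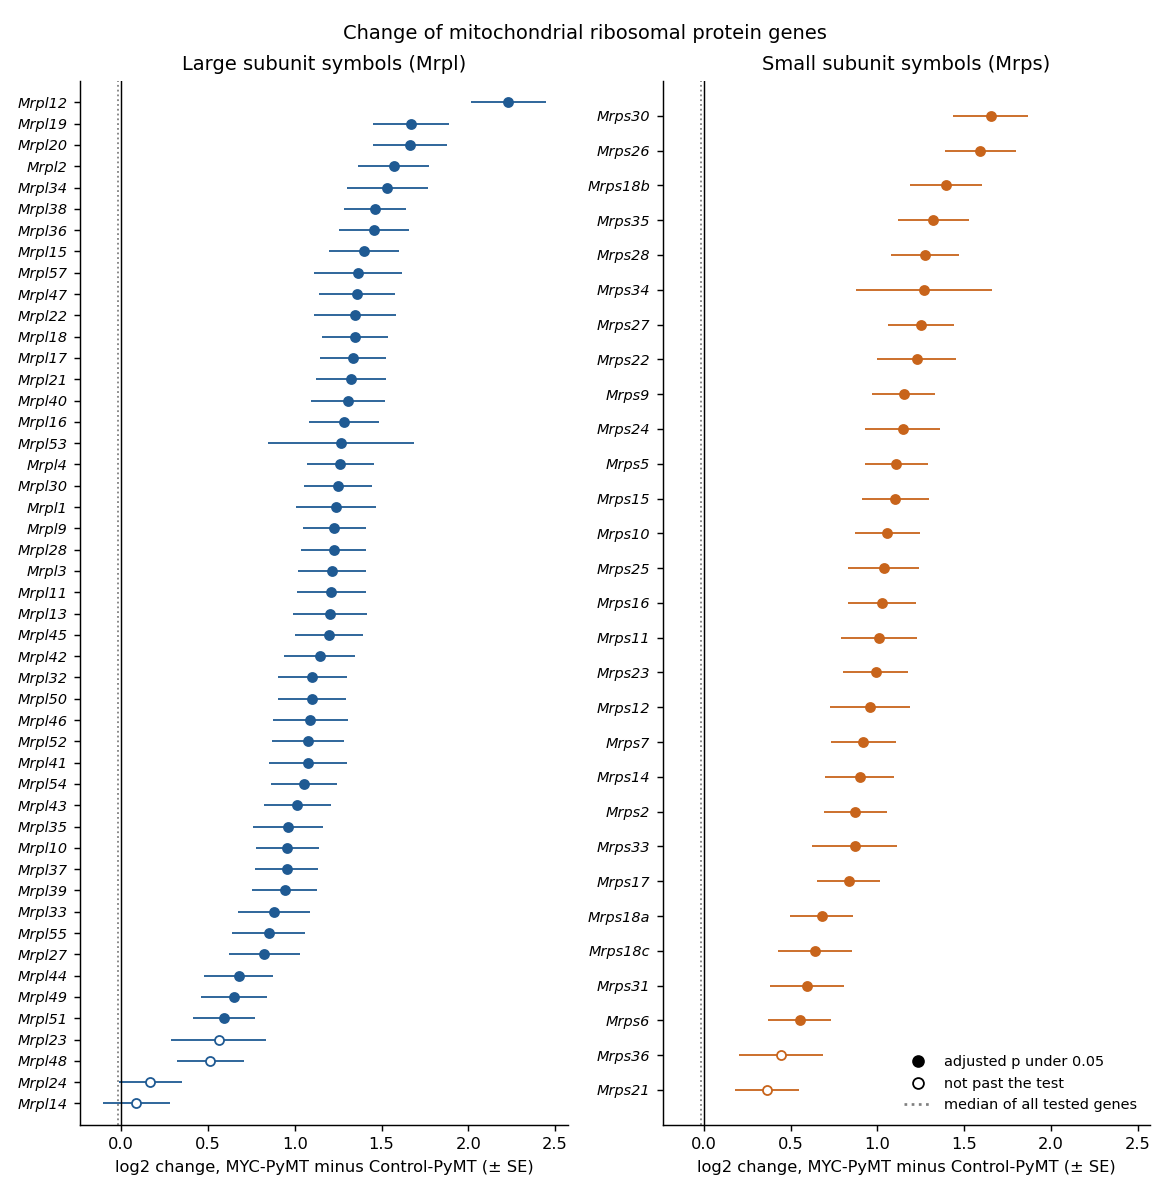
Log2 change of the 77 protein-coding members, MYC-PyMT minus Control-PyMT, with its standard error, for Mrpl symbols (left) and Mrps symbols (right). Filled points passed limma at an adjusted p under 0.05, and open points did not. All 77 points lie above 0, from 0.09 for Mrpl14 (-0.018 with upper-quartile scaling) to 2.23 for Mrpl12.

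The largest rise was that of Mrpl12 (ENSMUSG00000039640.7, chromosome 11, 120484613 to 120489065, plus strand, GRCm38), the counterpart of the bacterial stalk protein that recruits translation factors. Its product also binds the mitochondrial RNA polymerase. It had 12044 and 16598 scaled counts in replicates 1 and 2 of MYC-PyMT, against 3324 and 2729 in replicates 1 and 2 of Control-PyMT. The groups were far apart, with a ratio of means of 4.73 (log2 change 2.23, SE 0.21, adjusted p = 5.08e-05), and MYC-PyMT replicate 2 was the higher of its pair.

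Mrpl19, which sits where the subunits meet, came next with 3889 and 4557 scaled counts in MYC-PyMT, against 1576 and 1109 in Control-PyMT (log2 change 1.67, SE 0.22, adjusted p = 0.000243). Mrpl20, whose bacterial counterpart binds ribosomal RNA early in assembly, had 4813 and 6320.0 scaled counts in MYC-PyMT, against 1983 and 1531 in Control-PyMT (log2 change 1.66, SE 0.21, adjusted p = 0.000231). Both genes were about 3 times as high in MYC-PyMT, at ratios of 3.15 and 3.17. Mrps30, a mitochondria-specific protein that lies in the large subunit despite its symbol, had 3134 and 3697 scaled counts in MYC-PyMT, against 1275 and 918 in Control-PyMT (log2 change 1.65, SE 0.22, adjusted p = 0.000248). Mrps26, a mitochondria-specific protein of the small subunit, had 2599 and 3247 scaled counts in MYC-PyMT, against 882 and 1048 in Control-PyMT (log2 change 1.59, SE 0.20, adjusted p = 0.000221). Mrpl2, which lies next to the peptidyl transferase centre, had 2328 and 3019.9 scaled counts in MYC-PyMT, against 832 and 957 in Control-PyMT (log2 change 1.57, SE 0.21, adjusted p = 0.000260). In all of these genes both MYC-PyMT libraries stood above both Control-PyMT libraries, and MYC-PyMT replicate 2 stood above replicate 1. The ratio of means reached 3 in 5 members and 2 in 50 of 77, with a median of 2.16.

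The exceptions were few. Mrpl14, a protein of the subunit interface that assembly factors bind (ENSMUSG00000023939.7, chromosome 17, 45686322 to 45698495, plus strand), had 1161 and 1365 scaled counts in replicates 1 and 2 of MYC-PyMT, against 1203 and 1169.6 in replicates 1 and 2 of Control-PyMT. Its groups overlapped, which no other tested member showed, and its change did not pass (log2 change 0.09, SE 0.19, adjusted p = 0.739). Mrpl24, at the mouth of the exit tunnel, was the most abundant member in Control-PyMT tumours and had 3496 and 3834 scaled counts in MYC-PyMT, against 3490.2 and 3044 in Control-PyMT (log2 change 0.17, SE 0.18, adjusted p = 0.475). Mrpl12, with a similar level in Control-PyMT, thus had about 4 times the level of Mrpl24 in MYC-PyMT, at 14321 and 3665 scaled counts on average.

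Mrps21, of the small subunit, had 2224 and 2274 scaled counts in MYC-PyMT, against 1865 and 1632 in Control-PyMT (log2 change 0.37, SE 0.18, adjusted p = 0.127). Mrpl48, of the crest of the large subunit called the central protuberance, had 1974 and 1839.6 scaled counts in MYC-PyMT, against 1482 and 1201 in Control-PyMT and lay just short of the threshold (log2 change 0.51, SE 0.20, adjusted p = 0.0529). It passed without Control-PyMT replicate 1 (adjusted p = 0.0288), with TMM scaling (0.0493), with a level filter of 50 (0.0497) and with length trends removed (0.0180). Mrpl23, at the tunnel exit, had 433 and 431 scaled counts in MYC-PyMT, against 368 and 233 in Control-PyMT (log2 change 0.56, SE 0.27, adjusted p = 0.116), and also passed without Control-PyMT replicate 1 (log2 0.89, adjusted p = 0.0303). When Control-PyMT replicate 2 was left out instead, the change of Mrpl23 was 0.23 (adjusted p = 0.459) and that of Mrpl48 0.36 (adjusted p = 0.148). Mrps36 was named as a ribosomal protein but its product is now known as a part of the 2-oxoglutarate dehydrogenase complex. It had 399.5 and 449 scaled counts in MYC-PyMT, against 345 and 280.3 in Control-PyMT (log2 change 0.45, SE 0.24, adjusted p = 0.153). Apart from Mrpl14, the groups did not overlap in any of these genes.

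The pseudogene rows stood low. Mrpl23-ps1 had 82.5 and 92.3 scaled counts in MYC-PyMT, against 62.7 and 40.8 in Control-PyMT and Mrpl48-ps had 48.3 and 50.6 scaled counts in MYC-PyMT, against 37.4 and 41.6 in Control-PyMT, and neither passed (adjusted p = 0.0987 and 0.491). Mrps36-ps1 was under the level filter and was not tested, at 6.04 and 3.30 scaled counts in MYC-PyMT, against 4.68 and 3.40 in Control-PyMT. Their transcripts match those of Mrpl23, Mrpl48 and Mrps36 over 540, 636 and 306 bases at 100%, 98.1% and 99.4% identity (minimap2), so reads may be split between each gene and its copy and all these values are uncertain.

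**Figure D2:**
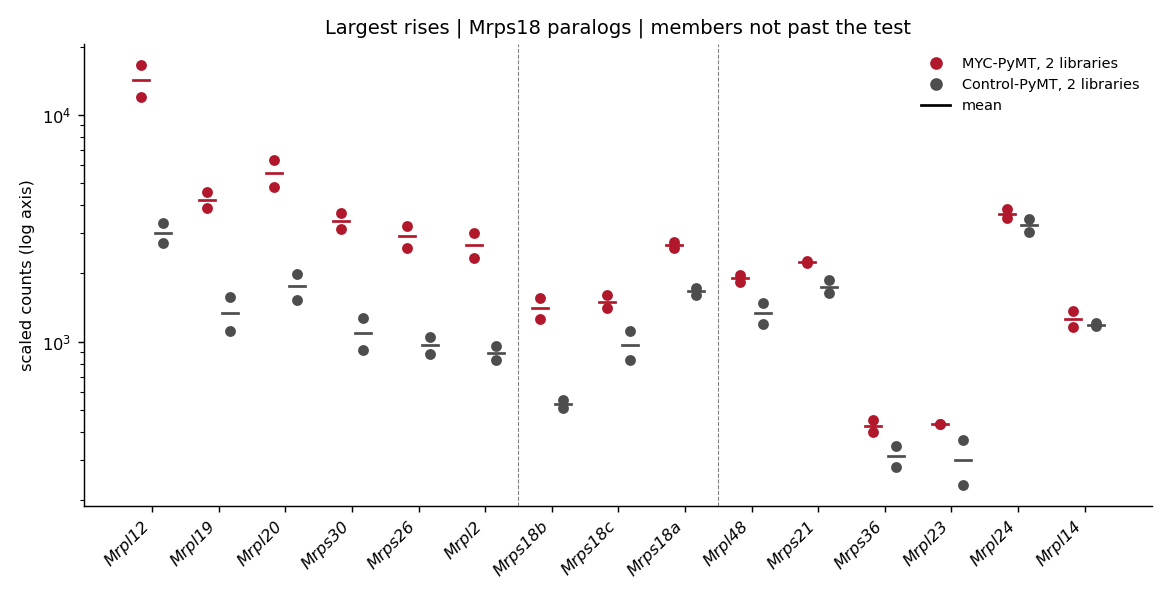
Scaled counts (log axis) of the 6 members with the largest rises, the Mrps18 paralogs and the 6 protein-coding members that did not pass the test. Points are libraries, MYC-PyMT on the left of each pair and Control-PyMT on the right, and bars are means. The groups overlap in Mrpl14 and in no other gene plotted.

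Both subunits took part. Of 48 genes with an Mrpl symbol 44 rose, with a median log2 change of 1.21, and of 29 with an Mrps symbol 27 rose, with a median of 1.03. With Mrps30 and Mrps18a counted in the large subunit, where their products lie, the genes were also divided by descent. Of large subunit genes with a bacterial counterpart 26 of 29 rose (median 1.25), and of mitochondria-specific ones 19 of 20 (median 1.08). In the small subunit these were 15 of 16 (median 0.98) and 10 of 10 (median 1.24). The order of the classes was thus turned round between the subunits, a difference that was not tested. Mrpl55 and Mrps36 were left out of this division.

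Genes of the stalk, which contacts the factors of elongation, all rose. Beside the rise of Mrpl12, Mrpl11 had 2744 and 3208 scaled counts in MYC-PyMT, against 1428 and 1149 in Control-PyMT (log2 change 1.21, SE 0.20, adjusted p = 0.000919). Mrpl10, which anchors the Mrpl12 copies, had 4114 and 3818 scaled counts in MYC-PyMT, against 2169 and 1925 in Control-PyMT (log2 change 0.96, SE 0.18, adjusted p = 0.00202), and Mrpl54, a mitochondria-specific stalk protein, had 2525 and 2999 scaled counts in MYC-PyMT, against 1363 and 1292 in Control-PyMT (log2 change 1.05, SE 0.19, adjusted p = 0.00148). In these genes the groups did not overlap. Mrpl53, the other mitochondria-specific stalk protein, was the lowest of all 77 genes, with 41.3 and 58.2 scaled counts in MYC-PyMT, against 15.9 and 24.6 in Control-PyMT (log2 change 1.27, SE 0.42, adjusted p = 0.0320). Its call ended without Control-PyMT replicate 1 (adjusted p = 0.141) and without MYC-PyMT replicate 2 (0.170). With length trends removed, the calls of Mrpl53 and Mrpl54 ended (adjusted p = 0.222 and 0.0971).

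The 3 paralogs of bacterial S18 all rose, by amounts that were not tested against each other. Mrps18b, at a place of its own in the small subunit, had 1563 and 1252 scaled counts in MYC-PyMT, against 553 and 509.6 in Control-PyMT (log2 change 1.40, SE 0.21, adjusted p = 0.000551). Mrps18c, which takes the place of S18, had 1401 and 1597 scaled counts in MYC-PyMT, against 1108 and 827 in Control-PyMT (log2 change 0.64, SE 0.21, adjusted p = 0.0319). Mrps18a, of the large subunit, had 2599 and 2741 scaled counts in MYC-PyMT, against 1724 and 1611 in Control-PyMT (log2 change 0.68, SE 0.18, adjusted p = 0.0116). Mrps18b was thus the lowest paralog in Control-PyMT and the one with the widest gap between groups. The Mrps18c call ended without Control-PyMT replicate 2, MYC-PyMT replicate 1 or MYC-PyMT replicate 2 (adjusted p = 0.120, 0.0662 and 0.202). It ended too with upper-quartile scaling (0.0585), with no variance trend (0.0847) and with length trends removed (0.963). The Mrps18a call ended without either MYC-PyMT library (0.0651 and 0.113) and with length trends removed (0.373).

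Levels of the members spanned a wide range, although the ribosome holds most of them once. Group means ran from 49.8 to 14321 scaled counts in MYC-PyMT, with a median of 2670.1, and from 20.3 to 3267 in Control-PyMT, with a median of 1246. The order of the genes was much alike in both groups (Spearman's rho 0.87 across 77 genes, which share the libraries and are not independent replicates). Among genes with an Mrpl symbol, Mrpl12, Mrpl20 and Mrpl42 had the highest levels per kilobase of transcript in MYC-PyMT. Mrpl12 had scaled counts per kb of 10882 in MYC-PyMT and 2299.7 in Control-PyMT. Mrpl20 had 7286 in MYC-PyMT and 2299.8 in Control-PyMT, and Mrpl42 had 5895 in MYC-PyMT and 2698 in Control-PyMT. In Control-PyMT the order was another, with Mrpl33 (2737), Mrpl42 and Mrpl24 (2440.0) above Mrpl20 and Mrpl12. Among genes with an Mrps symbol the highest per kb in both groups were Mrps21, with 4608 in MYC-PyMT and 3583 in Control-PyMT, Mrps6, with 4008 in MYC-PyMT and 2731 in Control-PyMT, and Mrps18a, whose product lies in the large subunit, with 3020.5 in MYC-PyMT and 1886 in Control-PyMT. Mrps21 was the highest of all members per kb in Control-PyMT and Mrpl12 in MYC-PyMT. Mrps6 had 3222 and 3559 scaled counts in MYC-PyMT, against 2398 and 2223 in Control-PyMT (log2 change 0.55, SE 0.18, adjusted p = 0.0292), a call that ended when any library other than Control-PyMT replicate 1 was left out (adjusted p = 0.0628 to 0.251). It ended also with the replicate number as a block (0.0534), upper-quartile scaling (0.0583), no variance trend (0.0814) or length trends removed (0.813). Mrpl42 had 4021 and 3831 scaled counts in MYC-PyMT, against 2068 and 1526 in Control-PyMT (log2 change 1.14, SE 0.20, adjusted p = 0.00139).

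The 5 lowest protein-coding members in Control-PyMT were Mrpl53, Mrps34, Mrps33, Mrpl23 and Mrps36, and each shares sequence with another gene. The exons of Mrpl53 lie to 88.0% in Gm42688, on the same strand. Those of Mrps34 overlap Nme3 on the same strand (37.0%) and Mapk8ip3 on the other (63.4%), and Mrps34 had 302 and 469 scaled counts in MYC-PyMT, against 103 and 235 in Control-PyMT. Mrps33 has a pseudogene copy at 99.7% identity, Gm5776, and had 439 and 545 scaled counts in MYC-PyMT, against 293 and 244 in Control-PyMT. Shared sequence was not particular to low members. Exons of 32 of the 77 members overlap another annotated gene, 8 of them on the same strand, and 17 have a pseudogene copy of at least 95% identity over at least 200 bases. Among high members, exons of Mrpl24 overlap Rrnad1 (26.3%) and those of Mrpl19 overlap Gcfc2 (36.0%), both on the other strand. The labels name a stranded kit but neither a read counter nor its strand setting, and how such reads were assigned was not tested.

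Sequences upstream of 5 members are shown for the largest rise, the smallest change and the motifs found. Each run holds 250 bases before and 50 after the annotated start, from RefSeq on GRCm38.p6, 5′ to 3′ on the strand of the gene, with motif matches in capitals. Mrpl12 (chr11:120484387-120484686, plus strand) rose most, and none of the motifs searched matched in this window. Mrpl20 (chr4:155802628-155802927, plus strand) had the largest rise of a member with CACGTG, the E-box that MYC with MAX binds. Mrps27 (chr13:99344536-99344835, plus strand) rose by a log2 change of 1.25 and holds both CCGGAAG, the core that ETS factors bind, read here as its complement CTTCCGG, and AAGATGGCG, a YY1 motif. Mrpl14 (chr17:45686099-45686398, plus strand) changed least and had no match. Mrps21 (chr3:95871465-95871764, minus strand) did not pass the test and holds CCGGAAG, also as its complement.
Mrpl12: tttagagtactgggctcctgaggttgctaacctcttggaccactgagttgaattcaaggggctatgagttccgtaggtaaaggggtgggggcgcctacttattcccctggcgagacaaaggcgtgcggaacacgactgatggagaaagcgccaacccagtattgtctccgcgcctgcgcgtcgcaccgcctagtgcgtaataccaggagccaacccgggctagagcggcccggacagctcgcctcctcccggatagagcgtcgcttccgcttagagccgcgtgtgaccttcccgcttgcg
Mrpl20: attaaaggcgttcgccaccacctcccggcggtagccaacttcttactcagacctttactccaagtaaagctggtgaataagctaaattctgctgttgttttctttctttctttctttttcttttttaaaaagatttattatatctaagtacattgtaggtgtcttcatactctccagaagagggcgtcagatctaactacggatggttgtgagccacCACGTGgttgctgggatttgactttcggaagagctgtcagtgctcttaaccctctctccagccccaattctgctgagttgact
Mrps27: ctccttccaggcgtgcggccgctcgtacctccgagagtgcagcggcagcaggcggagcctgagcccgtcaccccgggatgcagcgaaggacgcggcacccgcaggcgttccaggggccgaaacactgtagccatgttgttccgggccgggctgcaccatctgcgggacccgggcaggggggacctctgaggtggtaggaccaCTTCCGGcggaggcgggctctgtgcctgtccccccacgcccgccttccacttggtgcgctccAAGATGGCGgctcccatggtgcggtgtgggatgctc
Mrpl14: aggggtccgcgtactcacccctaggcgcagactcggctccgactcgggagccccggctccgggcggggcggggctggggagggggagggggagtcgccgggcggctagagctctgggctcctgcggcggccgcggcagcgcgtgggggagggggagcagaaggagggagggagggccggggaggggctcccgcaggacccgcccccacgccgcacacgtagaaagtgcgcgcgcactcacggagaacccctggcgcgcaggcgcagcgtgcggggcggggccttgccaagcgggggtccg
Mrps21: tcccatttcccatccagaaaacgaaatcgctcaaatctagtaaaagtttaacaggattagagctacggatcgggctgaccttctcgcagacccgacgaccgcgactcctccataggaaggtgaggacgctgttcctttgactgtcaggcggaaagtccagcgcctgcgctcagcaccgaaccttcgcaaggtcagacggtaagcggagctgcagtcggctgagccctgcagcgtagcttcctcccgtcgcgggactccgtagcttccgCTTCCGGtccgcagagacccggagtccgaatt

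Promoter windows were found for 68 members (74 windows) and searched on both strands. A gene counted if any of its windows matched. Members had 1.09 windows each and tested genes 1.28, which favours matches among tested genes, and the shares were not adjusted for this. CACGTG was in 5 of 68 (7.35%), against 11.1% of 11565 tested genes with a window and 14.4% of 2759 genes called higher. The members with it were Mrpl20, Mrpl2, Mrpl36, Mrpl37 and Mrps18c. All 5 rose, and so did 57 of the 63 members without it. The median log2 change was 1.46 with it (0.64 to 1.66) and 1.08 without it (0.09 to 2.23), a difference that was not tested. CCGGAAG or its complement CTTCCGG was in 25 members (36.8%), against 17.8% of tested genes and 24.0% of genes called higher. Members with CCGGAAG had a median change of 1.08 and those without it 1.09. AAGATGGCG or CGCCATCTT was in 8 members (11.8%), against 3.08% and 4.35%. The palindromic core of the NRF1 motif was in 3 members, Mrpl9, Mrpl32 and Mrpl39 (4.41%), against 2.06% and 2.90%. CCGGAAG and AAGATGGCG share the letters AAG and can overlap. In 32851 windows of all genes the shares were 7.15% for CACGTG, 8.86% for CCGGAAG, 1.40% for AAGATGGCG and 0.971% for the NRF1 core. These are letter matches, not measured binding. Members without a window in the table were Mrpl4, Mrpl13, Mrpl15, Mrpl19, Mrpl38, Mrpl54, Mrps28, Mrps34 and Mrps35.

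The genes lie on 17 chromosomes, and many start head to head with another gene. For 33 of 77 members (42.9%) a protein-coding gene starts on the other strand within 1000 bases, which held for 14.6% of 14461 tested protein-coding genes. Distances were taken between outermost annotated starts, to either side, so the genes of a pair can overlap. Mrpl46 and Mrps11 form such a pair with each other. Their outermost starts are 412 bases apart, and their exons overlap over 173 bases. Mrpl46 had 1854 and 2279 scaled counts in MYC-PyMT, against 1110.1 and 840.0 in Control-PyMT (log2 change 1.09, SE 0.22, adjusted p = 0.00257), and Mrps11 had 790.0 and 933 scaled counts in MYC-PyMT, against 398 and 456 in Control-PyMT (log2 change 1.01, SE 0.22, adjusted p = 0.00409). The pair rose by nearly the same amount.

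Of 30 tested neighbours outside the family 17 were higher in MYC-PyMT (56.7%, beside 23.3% of all tested genes), 4 were lower and 9 did not pass, with a median log2 change of 0.69. The 4 that fell were Zfp189 beside Mrpl50, Klc4 beside Mrpl2, Mitd1 beside Mrpl30 and Rab6a beside Mrpl48. Zfp189 had 116 and 158 scaled counts in MYC-PyMT, against 348 and 274 in Control-PyMT (log2 -1.18, adjusted p = 0.00735), while Mrpl50 had 4101 and 4241 scaled counts in MYC-PyMT, against 2234 and 1696 in Control-PyMT (log2 1.10, adjusted p = 0.00150). Klc4, a kinesin light chain, had 662 and 822 scaled counts in MYC-PyMT, against 1259.7 and 1415 in Control-PyMT (log2 -0.85, adjusted p = 0.00752), next to the rise of Mrpl2. Starts of Zfp189 and Mrpl50 are 83 bases apart, and those of Klc4 and Mrpl2 207. Of the neighbours that rose, Ska3, of the outer kinetochore, changed most, with 1008 and 1051 scaled counts in MYC-PyMT, against 304 and 251 in Control-PyMT (log2 1.90), beside Mrpl57, with 1564 and 2506 scaled counts in MYC-PyMT, against 679 and 867 in Control-PyMT. The neighbour of Mrpl14, Tmem63b, had 3398 and 2534 scaled counts in MYC-PyMT, against 2450.2 and 3461 in Control-PyMT and like Mrpl14 did not pass (log2 0.01, adjusted p = 0.973). These neighbours were named after their values were seen, and where exons overlap, reads may be shared.

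**Figure D3:**
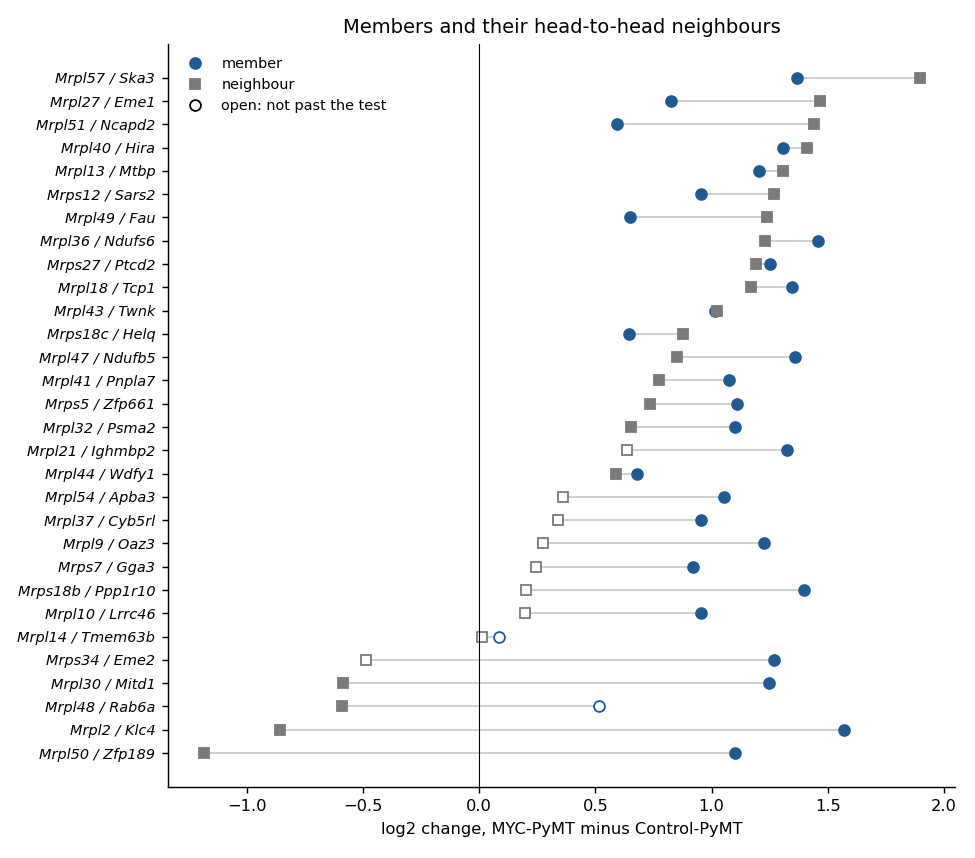
Log2 change, MYC-PyMT minus Control-PyMT, of 30 members (circles) and of the protein-coding gene that starts on the other strand within 1000 bases (squares), 1 pair a row. Filled symbols passed the test. Of the neighbours 17 rose and 4 fell, the lowest being Zfp189 at -1.18.

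Other mitoribosome proteins carry symbols outside the Mrpl and Mrps names, and all 6 of these rose (median log2 change 1.13). Dap3, a GTP-binding protein of the small subunit, had 5376 and 5585 scaled counts in MYC-PyMT, against 2771 and 2090.3 in Control-PyMT (log2 change 1.19, SE 0.20, adjusted p = 0.000995). Gadd45gip1, a mitochondria-specific protein of the large subunit, had 1652 and 2565 scaled counts in MYC-PyMT, against 678 and 845 in Control-PyMT (log2 change 1.44, SE 0.25, adjusted p = 0.00113). Ict1, a peptidyl-tRNA hydrolase built into the large subunit, had 2326 and 2736 scaled counts in MYC-PyMT, against 1537 and 1057 in Control-PyMT (log2 change 0.98, SE 0.22, adjusted p = 0.00535). In all 3 the groups did not overlap.

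Genes that assemble and serve the mitoribosome followed in part. Of 25 genes for assembly and ribosomal RNA modification 14 rose and 11 did not pass (median 0.74). Noa1, a GTPase of small subunit assembly, had 2453 and 2488 scaled counts in MYC-PyMT, against 823 and 747 in Control-PyMT (log2 change 1.65, SE 0.19, adjusted p = 0.000114), and Rbfa, which matures the small subunit RNA, had 2468 and 2873 scaled counts in MYC-PyMT, against 873 and 959 in Control-PyMT (log2 change 1.54, SE 0.19, adjusted p = 0.000193). Nsun4, an RNA methyltransferase that acts in assembly, had 621 and 432 scaled counts in MYC-PyMT, against 579.8 and 434 in Control-PyMT, and its groups overlapped. Of 13 translation factors 7 rose (median 0.70). The elongation factor genes Tsfm and Gfm1 rose by 1.55 and 1.21 on the log2 scale, while the initiation factor genes Mtif2 and Mtif3 changed by 0.29 and 0.21 and did not pass (adjusted p = 0.242 and 0.449). Tsfm had 1311 and 1475 scaled counts in MYC-PyMT, against 451 and 497 in Control-PyMT, and Mtif2 had 1861 and 1813 scaled counts in MYC-PyMT, against 1646 and 1380.2 in Control-PyMT.

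Of 20 genes for charging mitochondrial tRNAs 13 rose and 7 did not pass (median 0.92). Yars2, the tyrosyl-tRNA synthetase, had 1652 and 1870.4 scaled counts in MYC-PyMT, against 619 and 531 in Control-PyMT (log2 change 1.61, SE 0.20, adjusted p = 0.000199). Of 20 genes for mitochondrial transcription and RNA processing 17 rose (median 0.92). Elac2, which cuts tRNA 3′ ends, had 4012 and 3706 scaled counts in MYC-PyMT, against 1120.4 and 1283 in Control-PyMT (log2 change 1.68, SE 0.19, adjusted p = 9.89e-05), and Trmt10c, of mitochondrial RNase P, rose by a log2 change of 1.45. Polrmt, the polymerase that the Mrpl12 product binds, had 992 and 1021 scaled counts in MYC-PyMT, against 363 and 676 in Control-PyMT (log2 change 1.02, SE 0.29, adjusted p = 0.0148). No gene of these lists was called lower, where 24.6% of all tested genes were, and none was lower at an unadjusted p under 0.05.

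The RNAs of the mitochondrial genome were measured in the same poly(A)-selected libraries. The small subunit ribosomal RNA, mt-Rnr1, had 25575 and 25489 scaled counts in MYC-PyMT, against 16037 and 12926 in Control-PyMT (log2 change 0.83, SE 0.20, adjusted p = 0.00786), and the large subunit ribosomal RNA, mt-Rnr2, had 20799.6 and 20466 scaled counts in MYC-PyMT, against 20055 and 12642 in Control-PyMT (log2 change 0.37, SE 0.24, adjusted p = 0.227). The change of mt-Rnr1 passed, and for mt-Rnr2 the gap to Control-PyMT replicate 1 was small. Of 8 tested mitochondrial mRNAs 2 rose (25%, beside 23.3% of all tested genes), mt-Nd6 and mt-Nd1, which encode complex I subunits. The median log2 change of the 8 was 0.52. They include mt-Nd3, which stood near the level filter and did not pass. Its mean was 15.52 scaled counts in MYC-PyMT and 7.69 in Control-PyMT (log2 change 0.87, adjusted p = 0.247). mt-Nd6 had 29355 and 28337 scaled counts in MYC-PyMT, against 15986 and 14278 in Control-PyMT (log2 change 0.93, SE 0.20, adjusted p = 0.00347). mt-Nd1 had 176416 and 186890.0 scaled counts in MYC-PyMT, against 103085 and 88975 in Control-PyMT (log2 change 0.92, SE 0.26, adjusted p = 0.0145). The most abundant, mt-Co1, had 503390.0 and 454403 scaled counts in MYC-PyMT, against 392717 and 315472 in Control-PyMT (log2 change 0.44, SE 0.32, adjusted p = 0.280). In mt-Nd5 the groups overlapped, with 55904 and 38017 scaled counts in MYC-PyMT, against 40336 and 40376 in Control-PyMT.

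Among larger families, 78 of 79 cytosolic ribosomal protein genes rose, with a median log2 change of 1.28 and an SD across genes of 0.24, against an SD of 0.36 for the 77 mitochondrial ones. On the log2 scale Rps20 rose by 1.67 and Rps21 by 1.60. Of 74 nuclear genes for respiratory chain and ATP synthase subunits 62 rose (median 0.92), and Cyc1 and Uqcr11, of complex III, had log2 changes of 1.55 and 1.69. These families were set beside the members with no test of a difference between them. Over these 2 families and the other lists of mitochondrial gene expression together, 200 genes were called higher. Over all tested genes 23.3% were. That count was 151 with length trends removed, where 21.1% of all tested genes were higher, and 177 without the variance trend, where 19.6% were. It was 195 to 201 under the other alternatives that kept all libraries, with 19.3% to 26.4% of all tested genes higher. Fits that left out 1 library are not in this range.

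**Figure D4:**
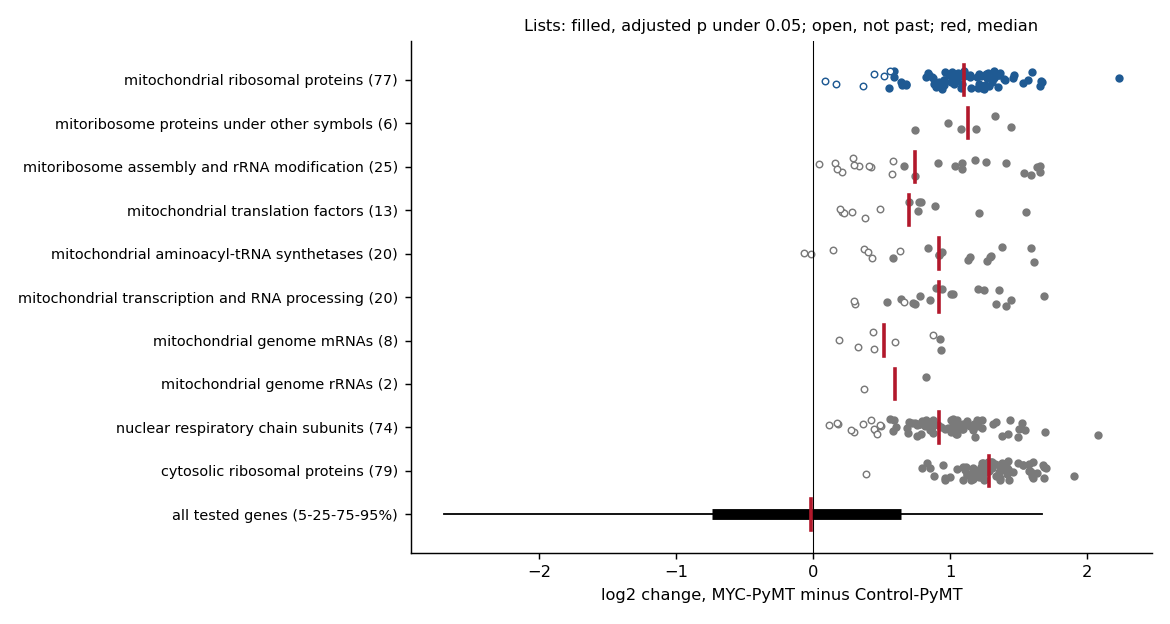
Log2 change, MYC-PyMT minus Control-PyMT, for the 77 protein-coding members (top), the other lists and all tested genes. Points are genes, filled where adjusted p was under 0.05, and red bars are medians. For all tested genes, the thick bar spans the quartiles and the thin line the outer percentiles named on the axis. The members' median is 1.10, below that of cytosolic ribosomal proteins at 1.28 and above that of mitochondrial mRNAs at 0.52.

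Transcript length and the libraries within a group moved with these values. Members have short transcripts, with a median of 1288 bases, against 2749 over tested genes. Across 16666 genes Spearman's rho of the change with length was -0.23, and across the 77 members it was 0.17. Within MYC-PyMT, replicate 2 was the higher library for 63 of 77 members, by a median of 0.14 on the log2 scale, against 0.02 over all genes. Within Control-PyMT, replicate 2 was higher for 16 of 77, with a median difference from replicate 1 of -0.28, against -0.07 over all genes. After each library's trend with length was removed, 56 members were higher and 1 lower, with a median of 0.81. Over all tested genes 21.1% were then higher and 24.2% lower. The lower member was Mrpl14 (log2 -0.54, adjusted p = 0.0392). Length trends were kept when 1 library was left out. The members' median was 1.01 without MYC-PyMT replicate 2, 1.19 without MYC-PyMT replicate 1, 1.00 without Control-PyMT replicate 2 and 1.17 without Control-PyMT replicate 1. The labels give RNA integrity numbers over a wide range, without tying them to libraries, and the part of RNA quality in these values was not tested.

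**Figure D5:**
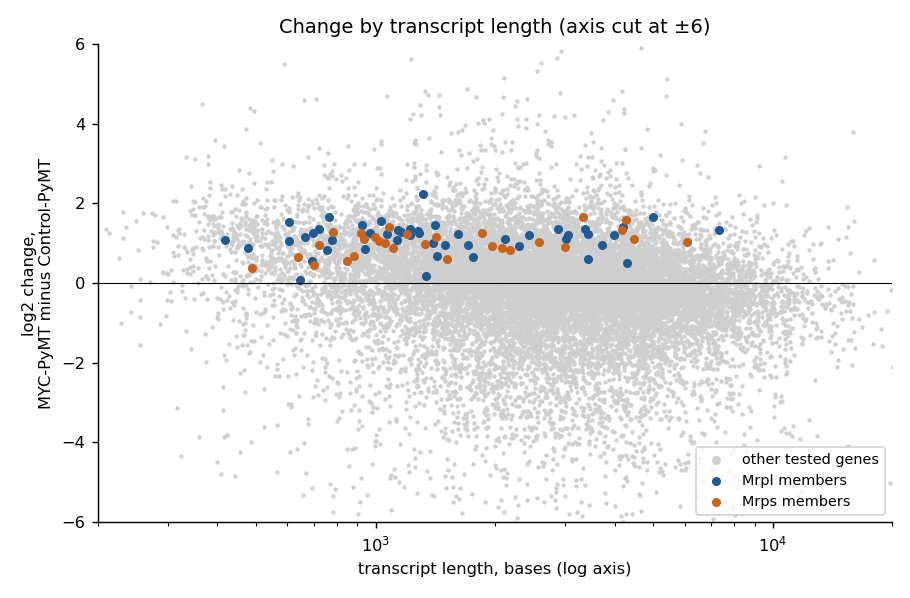
Log2 change, MYC-PyMT minus Control-PyMT, against transcript length in bases (log axis) for Mrpl members, Mrps members and other tested genes. Members lie above 0 along their whole range of lengths, and other genes spread on both sides of 0. Genes beyond the ends of the axes are not drawn.

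Markers of several cell types also differed between groups. Leukocyte markers summed to 2987 and 2762 in MYC-PyMT, against 13706 and 20353 in Control-PyMT, and 5 of 6 were lower in MYC-PyMT, among them Ptprc, with 538 and 656 scaled counts in MYC-PyMT, against 1334 and 1209.5 in Control-PyMT. Most of the gap lay in Cd74, with 1258 and 1086 scaled counts in MYC-PyMT, against 10846 and 17168 in Control-PyMT, and the other 5 markers summed to 1729 and 1676 in MYC-PyMT, against 2859.8 and 3185 in Control-PyMT. The leukocyte marker that did not pass was Csf3r, with 141 and 103 scaled counts in MYC-PyMT, against 161 and 149 in Control-PyMT (log2 change -0.36, limma adjusted p = 0.346). Mammary epithelium markers summed to 84307 and 94540.0 in MYC-PyMT, against 106720.0 and 96984 in Control-PyMT, with 1 of 6 higher and 1 lower, so the labelled tissue's markers were present in both groups. The higher one was Krt14, with 4828 and 13476 scaled counts in MYC-PyMT, against 4673 and 2481 in Control-PyMT. The lower one was Cdh1, with 12329 and 11618 in MYC-PyMT, against 19594 and 17250 in Control-PyMT. Of fibroblast markers 1 of 4 was higher and 2 lower, of endothelial ones 1 of 3 was higher, of adipocyte ones 1 of 3 was higher, and all 3 tested keratinocyte markers were lower, with Krt25 at 0 in both MYC-PyMT libraries. Summed levels of fibroblast markers were 9402 and 12222 in MYC-PyMT, against 8782 and 13025 in Control-PyMT. Without Col1a2, the highest, the other 3 summed to 4394 and 5390 in MYC-PyMT, against 6359 and 8029 in Control-PyMT. The markers moved in opposite directions, with Col1a1 higher (log2 change 1.21) and Dcn lower (log2 change -2.22). Dcn had 925 and 1169 scaled counts in MYC-PyMT, against 5172 and 4516 in Control-PyMT. Endothelial markers summed to 2328 and 2574 in MYC-PyMT, against 1386 and 1872 in Control-PyMT. Adipocyte markers summed to 3268 and 2783 in MYC-PyMT, against 577 and 1813 in Control-PyMT. That sum was mostly Fabp4, with 2939 and 2544 scaled counts in MYC-PyMT, against 451 and 1201 in Control-PyMT, and the groups overlapped in the sum of the other 2, Adipoq and Plin1, with 329 and 238 in MYC-PyMT, against 126 and 612 in Control-PyMT. Keratinocyte markers summed to 112 and 145 in MYC-PyMT, against 1885 and 924 in Control-PyMT. In bulk tissue, more cells of a type and more RNA per cell cannot be told apart, and the part of these shifts in the members' change was not tested. The mouse Myc gene had 3215 and 2815 scaled counts in MYC-PyMT, against 1832 and 2819.9 in Control-PyMT and did not pass (log2 change 0.40, SE 0.23, adjusted p = 0.172), and its change depended on the Control-PyMT library kept. It passed without Control-PyMT replicate 2 (log2 0.72, adjusted p = 0.0247) and was near 0 without Control-PyMT replicate 1 (log2 0.094, adjusted p = 0.695).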

How the data were processed

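RNA of frozen, ground tumour tissue went into stranded TruSeq libraries after poly(A) selection, per the labels' protocols. The submitters' processing notes name HISAT2 and DESeq2 as tools and mm10 and GRCm38.p5 as builds. The deposited values are a signal, scaled counts, in which the authors divided read counts by a size factor per library, not by gene length: every value was a whole multiple of 1 number per library, within 0.001 reads. Library totals were 34190913 and 31783846 reads in MYC-PyMT replicates 1 and 2, and 32245080 and 32879311 in Control-PyMT. Fits used limma 3.58.1 in R 4.3.3 (lmFit and eBayes with a variance trend, two-sided) on log2(value + 1) for genes with at least 10 in at least 2 libraries, with Benjamini-Hochberg adjustment over all 16725 and a threshold of 0.05, after a test on simulated data. An exact test of 2 against 2 could not pass. Lengths are of 1 principal transcript per gene from GENCODE release M21, where 20463 of 20555 IDs were found. Copies were sought with minimap2 2.31-r1302. Named members are the 6 largest rises, those not past the test, the 3 highest per kb of Mrpl and of Mrps symbols, the S18 paralogs, Mrps30, Mrps36, Ict1 and the stalk, with 2 genes of smallest p per other list, of which 1 is not reported here. Other genes, and the printed promoters, were named after their values were seen. The members and lists were chosen with earlier results of these data known. Alternatives were pseudocounts, level filters, scaling by TMM or the upper quartile, a fit without the variance trend, a replicate block, removal of length trends (lowess) and leaving out each library.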

Additional observations from a re-analysis of the deposited data

How the results depend on the processing

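Over 13 alternatives the median change of the members stayed positive. In those that kept all libraries 56 to 72 members were called higher, while 19.3% to 26.4% of all tested genes were. With length trends removed, 1 member was lower (0 otherwise), and the median log2 change was 0.81. Leaving out 1 library gave medians of 1.00 to 1.19. Under that length correction the changes of Mrpl14, Mrpl24, Mrpl48-ps, Mrps21, Mrps36 and Mrpl23, none of which passed the main test, turned to -0.54, -0.14, -0.31, -0.38, -0.14 and -0.033, and that of Mrpl14 then passed; the cause was not tested. Mrpl14 was at -0.018 with upper-quartile scaling, which moved the median of all genes to -0.12, and ran from -0.030 to 0.20 when 1 library was left out. With the replicate number as a block 69 members were higher, and 8039 genes were called, against 8010 without it. Same-numbered libraries did not deviate together (correlation -0.09 over 16725 genes). That value rests on a single difference between libraries in each group, so it cannot show whether the numbers pair the samples. Tests on whole read counts, planned as alternatives, were not run. With 2 libraries a group, the standard error of a member's log2 change was 0.18 to 0.42, so changes near that size could not be called. Some changes well above their standard error did not pass either, such as Mrpl48 at 0.51 (SE 0.20) and Mrpl23 at 0.56 (SE 0.27).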

Other observations

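Of the mitochondrial mRNAs, mt-Co2, mt-Co3 and mt-Atp6 were under the level filter, although mt-Co1 was the most abundant of them. mt-Co2 had 6.04 and 6.59 scaled counts in MYC-PyMT, against 3.74 and 1.70 in Control-PyMT, and mt-Atp6 had 5.03 and 6.59 scaled counts in MYC-PyMT, against 3.74 and 0 in Control-PyMT. mt-Co3 stood at 313 and 5.49 scaled counts in MYC-PyMT, against 0 and 0 in Control-PyMT, so that 1 MYC-PyMT library was far above the other 3. The labels name no read counter, and how reads of these genes were assigned was not tested. Their low counts thus cannot be read as low levels of these RNAs. The same holds for mt-Nd3, which is among the tested mitochondrial mRNAs.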
